A study of Homo sapiens with 6 samples.

Results

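Potassium channel genes were examined for thymidine glycol (Tg), an oxidised thymidine, in the DNA of HEK293T, a human embryonic kidney cell line carrying the SV40 large T antigen. The genes were chosen by symbol: every protein-coding gene of the RefSeq GRCh38 table named KCN, then letters, then a number. This gave 95 of the 20037 protein-coding genes on chromosomes 1 to 22, X and Y. Wild-type cells were compared with an isogenic line lacking both NTHL1 and NEIL1 (NTHL1-/-,NEIL1-/-), 2 glycosylases that remove oxidised pyrimidines. Neither line was treated. In both, extracted DNA was cross-linked to added NTHL1 protein, which acts on Tg and also on other oxidised pyrimidines, and each genotype had 2 such libraries, 1 input library and 1 deposited list of sites. How the knockout line was made, and whether it is 1 clone, is not given in the sources used here.

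Potassium channels let potassium ions leave or enter a cell and so set its resting voltage and end its electrical spikes. Voltage-gated channels are built from pore-forming alpha subunits joined by auxiliary subunits; inward rectifiers and 2-pore channels carry resting currents, and a further class opens on intracellular calcium or sodium. Many of these genes are best known from nerve and muscle. The lists describe DNA, so they say nothing of whether any channel is made in these cells.

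The wild-type list held 3688 sites and the double-knockout list 9373. No value per library exists in them, so no comparison below has a spread between replicates or a p-value; intervals are 95%, exact Poisson for numbers and exact binomial for shares, and cover counting error only. A site was given to a gene when its midpoint lay in the gene body, from the first to the last annotated base. The authors' fold enrichment is reads at a site's summit over the peak caller's background, and their −log10 q grows with the strength of the call. Recovered reads at a summit had a median of 13 for wild-type sites and 17 for double-knockout sites, whose background was 1.69 times higher. Total reads are unknown, and the uneven chromosome copy number of HEK293T was not corrected for.

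A Tg site overlapped the promoter window of 2 channel genes, whose sequences are shown for that reason. Windows run from 250 bases before to 50 bases after an annotated RefSeq transcript start (GRCh38.p14), and 71 of the 95 genes had at least 1 window. KCNN4 encodes the calcium-activated channel of intermediate conductance known from lymphocytes and red cells. Its window lies at chr19:43780924-43781223 on the minus strand. The wild-type site at chr19:43781130-43781570 had a fold enrichment of 7.64, a −log10 q of 10.6 and 20 reads (12.2 to 30.9). It covered the first 94 bases, printed in capitals, and ended 157 bp before the start.
KCNN4: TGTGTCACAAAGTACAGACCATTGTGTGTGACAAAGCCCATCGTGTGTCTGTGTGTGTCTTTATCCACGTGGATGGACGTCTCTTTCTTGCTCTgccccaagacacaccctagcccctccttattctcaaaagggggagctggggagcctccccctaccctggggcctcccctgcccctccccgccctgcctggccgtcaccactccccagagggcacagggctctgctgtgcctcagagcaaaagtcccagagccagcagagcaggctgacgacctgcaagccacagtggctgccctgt
The double-knockout list had a site at the same place, chr19:43781184-43781674, with a fold of 5.48 and 19 reads (11.4 to 29.7). It covered the first 40 bases of the window. On the printed strand, thymine made up 35.1% of the 94 window bases under the wild-type site and 22.5% of the 40 under the double-knockout site. It made up 21.0% of the whole window. The sites are 441 and 491 bp wide, and their bases outside the window were not examined.

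KCNJ14 encodes an inward rectifier subunit. Its window lies at chr19:48455324-48455623 on the plus strand, where a double-knockout site at chr19:48454836-48455346 (fold 4.27, 22 reads, 13.8 to 33.3) covered the first 23 bases, in capitals.
KCNJ14: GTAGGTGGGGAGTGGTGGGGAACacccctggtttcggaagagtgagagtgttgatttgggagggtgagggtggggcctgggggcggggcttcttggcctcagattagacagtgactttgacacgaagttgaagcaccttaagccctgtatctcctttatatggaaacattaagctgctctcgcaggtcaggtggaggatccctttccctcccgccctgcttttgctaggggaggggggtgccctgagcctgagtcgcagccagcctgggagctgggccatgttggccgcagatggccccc
Thymine made up 17.4% of these bases and 23.3% of the whole window. The sites at both genes lay upstream of the gene body and are therefore not in the counts that follow. Of the 71 channel genes with a window, 1 (1.41%) had a window overlapped by a wild-type site, against 0.107% of all protein-coding genes with a window. In the double knockout it was 2 (2.82%), against 0.252%. Overlap was rare throughout: it involved 17 and 40 of 15843 coding genes. With so few events the percentages carry wide intervals (0.0357% to 7.60% and 0.343% to 9.81% for the channel genes).

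Tg sites lay in the body of 25 channel genes. Wild type marked 16 of 95 genes, 16.8% (9.94% to 25.9%), against 5.88% of all protein-coding genes. The double knockout marked 23, 24.2% (16.0% to 34.1%), against 14.0% of all. Both lists marked 14 genes, 14.7% (8.30% to 23.5%), against 5.09% of all. The remaining 70 had no site in either list.

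**Figure D1:**
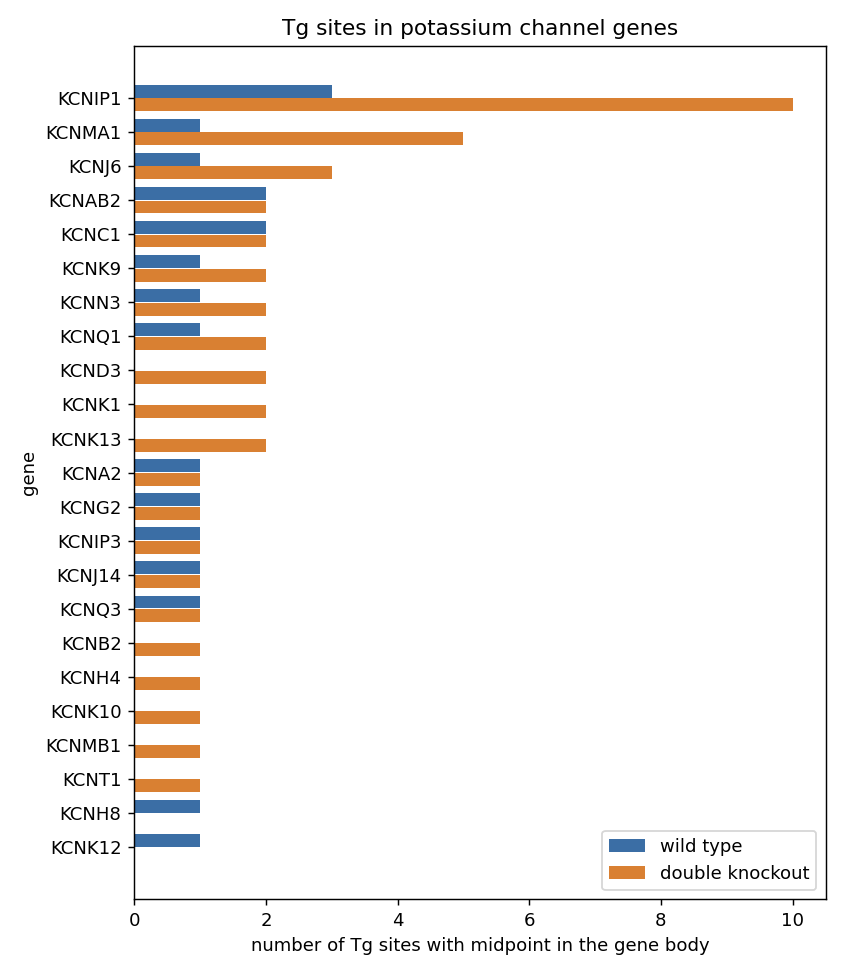
Number of Tg sites (x axis) whose midpoint lay in each of 23 potassium channel genes with a site (y axis), in the wild-type list and the double-knockout list. KCNIP1 had 3 wild-type and 10 double-knockout sites, and most other genes had 1 or 2.

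Channel genes were longer than most. Their median length was 40.5 kb against 24.1 kb for all protein-coding genes. Those with a site had a median of 108.5 kb and those without one 23.5 kb. Per length of gene body the family lay near the coding average. Over 11.8 Mb the channel genes held 20 separate wild-type sites, 1.70 per Mb (1.04 to 2.62), against 1.32 per Mb in all coding gene bodies. They held 46 double-knockout sites, 3.91 per Mb (2.86 to 5.21), against 3.52. Both intervals held the coding average. The coding rate of each gene's own chromosome would give 14.5 and 38.4 sites, inside the counting intervals of the numbers observed (12.2 to 30.9 and 33.7 to 61.4).

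Within length classes, no channel gene under 10 kb held a site: 0 of 19 in either list (upper bound 17.6%), where the coding genes of that length with a site came to 0.966% (wild type) and 2.65% (double knockout). From 10 to 50 kb, wild type marked 4 of 34 (all coding genes 4.41%) and the double knockout 6 (11.0%). From 50 to 100 kb it was 2 of 12 (7.72%) and 3 of 12 (18.4%). From 100 to 200 kb wild type marked 4 of 11 (36.4%, 10.9% to 69.2%, against 12.2%). The double knockout marked 7 of 11 (63.6%, 30.8% to 89.1%, against 27.7%). From 200 to 400 kb, 4 of 9 held a site in each list, against 19.2% and 44.5% of coding genes. At 400 kb or more the order was the other way, with 2 of 10 marked by wild type (20.0%, 2.52% to 55.6%, against 26.5%) and 3 of 10 by the double knockout (30.0%, 6.67% to 65.2%, against 55.3%). Of these 12 class shares, the interval excluded the background for the double-knockout genes of 100 to 200 kb only.

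**Figure D2:**
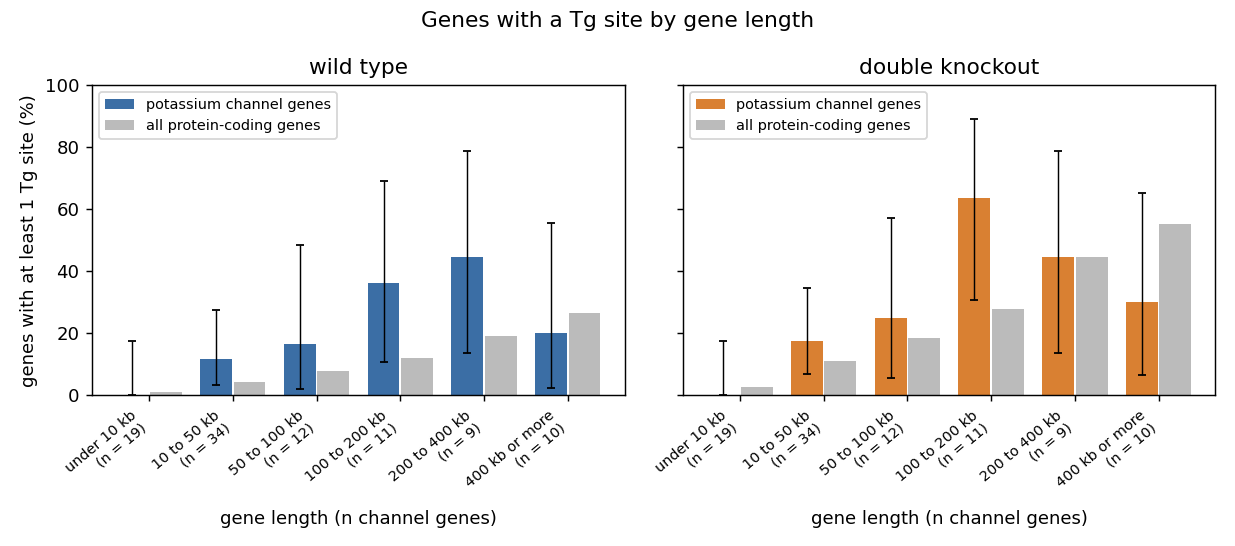
Percent of genes with at least 1 Tg site (y axis) by gene length class (x axis) in wild type (left) and the double knockout (right). Coloured bars are potassium channel genes with exact 95% binomial intervals, and grey bars are all protein-coding genes; grey bars climb with length in both lists, while the channel genes of 400 kb or more stand at 20.0% and 30.0%.

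Longer channel genes tended to hold more sites, with a low correlation over the 95 genes. Pearson's r was 0.19 for the wild-type list and 0.28 for the other, and Spearman's rho 0.31 and 0.37. Over all 20037 coding genes r was 0.23 and 0.37, and rho 0.21 and 0.32. These are descriptions across genes, which share libraries and chromosomes.

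Of the 10 channel genes of 400 kb or more, 7 had no site in either list. The longest were KCNIP4, a calcium-sensing auxiliary subunit gene of 1220 kb, KCNQ5, a pore subunit gene of the neuronal M-current family (577 kb), and KCND2, a pore subunit gene for rapidly inactivating current (477 kb). KCNH7 (467 kb) and KCNH1 (456 kb), both ether-à-go-go type pore subunits, completed the first 5. KCNN2 (441 kb), a small-conductance calcium-activated channel, and KCNAB1 (421 kb), an auxiliary beta subunit, also spanned over 400 kb. All 10 genes together held 2 wild-type sites (0.242 to 7.22), against 6.06 at the coding rates of their chromosomes. They held 8 double-knockout sites (3.45 to 15.76), against 15.81, just past the upper bound. The 500 kb on either side of each gene held no wild-type site for any of the 7, which were picked for having no site, and 0.857 double-knockout sites per Mb. Around all channel genes these flanks held 1.78 and 5.66 per Mb, against 1.70 and 3.99 in the genes when a site in 2 nested genes counts for both. These rates are not like for like. Each gene adds flanks of similar length, and flanks shared by neighbouring channel genes count for each of them. The rate in the genes is weighted by length instead, with 5.63 of the 11.8 Mb in the 10 genes of 400 kb or more.

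KCNIP1 held more sites than any other channel gene in both lists. It encodes an EF-hand calcium sensor that binds the pore subunits of the KCND family, and spans 383 kb at chr5:170353487-170736632. It was singled out for its counts, which are given as a description. The wild-type count was 3 (0.619 to 8.77), against 0.335 at the coding rate of chromosome 5. The double-knockout count was 10 (4.80 to 18.4), against 0.961. Of the 20037 coding genes, 11 held more double-knockout sites, and of the 16 coding genes with at least 10 such sites 2 were shorter than KCNIP1. The 500 kb on either side of it, 1 Mb in all, held 3 sites from wild type and 6 from the double knockout. Over its own 383 kb the density was 0.783 and 2.61 sites per 100 kb.

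The wild-type sites in KCNIP1 lay 131, 149 and 311 kb from its annotated 5′ end. Other annotated transcript starts lay nearer, at 19.2, 1.40 and 160 kb. At chr5:170484644-170484994 the fold was 4.99 and the −log10 q 4.30, at chr5:170502495-170502740 4.71 and 3.48, and at chr5:170663678-170664412 6.15 and 7.10. All 3 were found again in the double knockout, at chr5:170484511-170484857 (fold 4.32, −log10 q 6.72), chr5:170502318-170502846 (6.06 and 9.06) and chr5:170663664-170664473 (4.81 and 7.45). The other 7 double-knockout sites had no wild-type partner. They spread along the gene rather than lying in 1 cluster: the gaps between neighbouring double-knockout sites ran from 8.91 to 82.9 kb, with a median of 18.8 kb.

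Of these 7, the first in the gene, at chr5:170382812-170383178 (fold 5.13, −log10 q 5.97), also lay in KCNMB1. KCNMB1 encodes the smooth muscle beta subunit of the BK channel and is nested in KCNIP1 on the other strand, so this site gives it its only count. Next came chr5:170465765-170466059 (4.79 and 5.46), then a group of 3 at chr5:170551486-170552176 (4.61 and 6.78), chr5:170560580-170560902 (4.61 and 6.78) and chr5:170571075-170571372 (2.58 and 1.98). The group spans under 20 kb near the middle of the gene, and the last of them had the lowest fold of all double-knockout sites in channel genes. The last were chr5:170652011-170652608 (4.50 and 4.27), inside the antisense RNA gene KCNIP1-AS1 as well (as was the shared site nearest to it), and chr5:170696819-170697087 (4.60 and 6.20). Reads at the 10 summits ranged from 13 to 24.

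**Figure D3:**
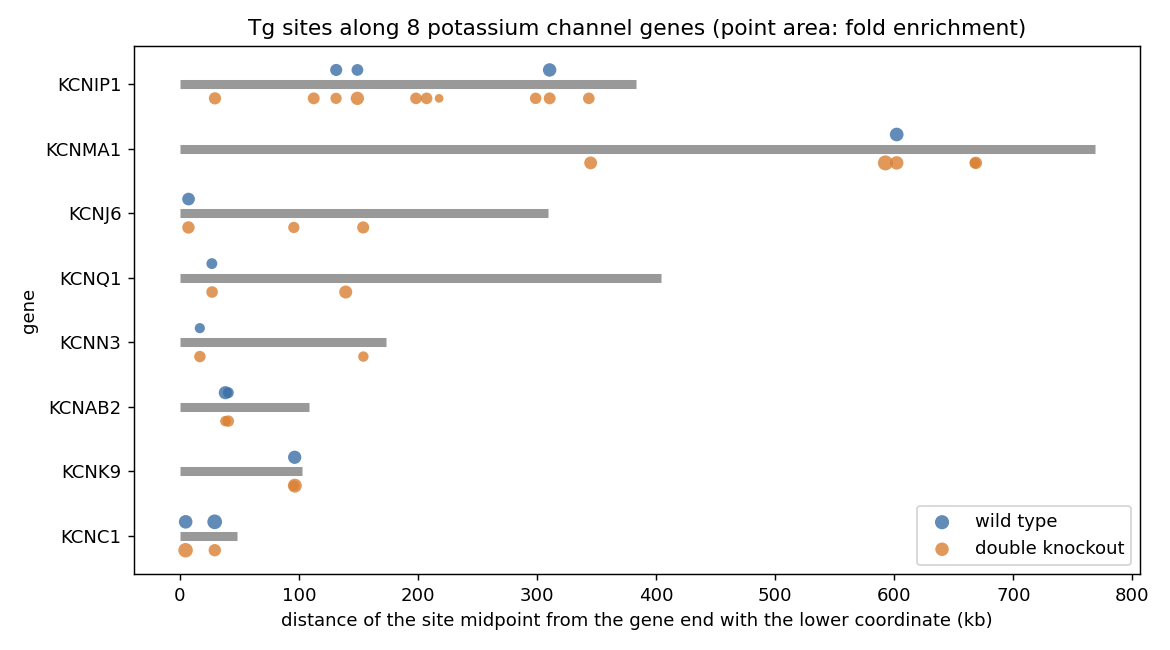
Position of Tg sites along 8 potassium channel genes, as distance of the site midpoint from the lower-coordinate end of the gene in kb (x axis). Grey bars are gene bodies, points above them wild-type sites and points below them double-knockout sites, with area in proportion to fold enrichment; 3 wild-type and 10 double-knockout points lie along KCNIP1.

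KCNMA1 encodes the pore of the BK channel, which opens on both voltage and calcium. It is the second longest channel gene, 768 kb at chr10:76869602-77637808, and held 1 wild-type and 5 double-knockout sites (1.62 to 11.7). The coding rate of chromosome 10 would give 1.10 and 2.52, inside both counting intervals. The wild-type site, chr10:77470984-77472306 (fold 6.37, −log10 q 7.79), was 1323 bp wide, the broadest wild-type site in any channel gene. The double knockout had it at chr10:77470950-77472318 (6.22 and 10.1), 166 kb from the 5′ end, and a stronger site 176 kb from that end at chr10:77461865-77462456 (7.69 and 12.1). A pair under 1 kb apart lay at chr10:77537244-77537525 (3.96 and 3.72) and chr10:77537956-77538282 (5.29 and 5.63). The fifth was at chr10:77214282-77214942 (5.64 and 6.43), so 4 of the 5 lay between 99.7 and 176 kb from the 5′ end of this gene.

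KCNJ6 encodes a G-protein-gated inward rectifier subunit of neurons and spans 309 kb at chr21:37607373-37916457. It held 1 wild-type and 3 double-knockout sites, where the coding rate of chromosome 21 would give 0.971 and 1.72. The wild-type site, chr21:37614512-37614853 (fold 5.48, −log10 q 5.22), lay 302 kb from the 5′ end, near the far end of the gene. It was shared with chr21:37614364-37614808 (5.25 and 7.66) in the double knockout. The other double-knockout sites were chr21:37702707-37703509 (4.36 and 5.52) and chr21:37761066-37761665 (5.02 and 8.14). All but the last of these 4 also lay in the antisense RNA gene KCNJ6-AS1.

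Among the voltage-gated pore subunits, 11 of 40 genes held a site. These genes had 8 wild-type sites, 1.53 per Mb (0.659 to 3.01), and 14 double-knockout sites, 2.67 per Mb (1.46 to 4.48). KCNC1 (48.3 kb), a pore subunit gene of channels that allow neurons to fire fast, held 2 sites in each list and both pairs were shared. The first lay 4.89 kb from the 5′ end (wild-type fold 6.29). The other had a wild-type fold of 7.37 and a −log10 q of 10.6, the highest among wild-type sites in channel gene bodies. In the double knockout the first of them had the highest −log10 q of any site in a channel gene, 14.2. The gene had 4.14 sites per 100 kb in each list.

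KCNQ1, a pore subunit of heart and inner ear near the end of chromosome 11 (404 kb), held 1 wild-type site (fold 4.02) and 2 double-knockout sites (4.61 and 5.81). KCNQ3, which forms the neuronal M-current, held 1 in each list, but 34.6 kb apart. KCNA2, a pore subunit of axons, and KCNG2, a subunit that works only beside other pore subunits, held 1 in each list, and in both genes the sites were shared. KCNH8, of the ether-à-go-go-like group, held 1 wild-type site and none in the double knockout. KCND3, a cardiac and neuronal pore subunit (219 kb), had 0 and 2, and KCNB2 and KCNH4 had 0 and 1 each. Across the 8 KCNH genes, 1.76 Mb in all, there was 1 site in each list (0.0253 to 5.57), where the coding rates of their chromosomes would give 1.84 and 5.55. Both values lay inside that interval, the latter at its edge.

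Of the 12 auxiliary subunit genes, 3 held sites: KCNIP1, KCNIP3 and KCNAB2. Their class had 6 wild-type sites, 2.57 per Mb (0.942 to 5.59), and 13 double-knockout sites, 5.56 per Mb (2.96 to 9.51). Without KCNIP1 the class had 3 sites in each list, 1.53 per Mb in both, so the double-knockout density rests on that gene. KCNAB2, a beta subunit with an aldo-keto reductase fold, held 2 sites in each list, 38.2 and 40.8 kb from its 5′ end in wild type (folds 5.93 and 4.02), and both were shared. The nearest annotated transcript start lay 3.82 and 1.25 kb from these wild-type sites. KCNIP3, a calcium sensor also described as a transcriptional repressor, held 1 in each list, which overlapped. The 5 KCNE genes, short genes for single-span auxiliary subunits, held none.

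The 2-pore class had 2 wild-type sites, 2.29 per Mb (0.278 to 8.28), and 7 double-knockout sites, 8.02 per Mb (3.22 to 16.5), in 5 of 15 genes. KCNK9, an acid-sensitive leak channel gene, held 1 and 2 sites, and both double-knockout sites overlapped the wild-type one. Per 100 kb KCNK9 had 0.978 and 1.96. KCNK1, a widely found weak inward-rectifying member, held 0 and 2, or 3.42 per 100 kb in the double knockout. KCNK13 also held 0 and 2 and KCNK10 0 and 1. KCNK12 held 1 and 0. The inward rectifiers had 2 wild-type and 4 double-knockout sites in KCNJ6 and KCNJ14, with 14 of 16 genes empty. KCNJ14 (11.4 kb) was the shortest channel gene with a site, 1 in each list at the same place, 8.38 kb from its 5′ end. KCNJ12 and KCNJ18 are near-identical copies, and neither had a site. How reads that match both were placed is not given in the sources used here.

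The calcium- and sodium-activated pore subunits had 2 wild-type sites, 0.965 per Mb (0.117 to 3.49), and 8 double-knockout sites, 3.86 per Mb (1.67 to 7.61). Beside KCNMA1 these were in KCNN3, a small-conductance channel gene, with 1 and 2, and in KCNT1, a sodium-activated channel gene, with 0 and 1. Flanking KCNT1 there were 12 and 11 sites per Mb. Of the 4 BK beta genes KCNMB1 had its single double-knockout site. The double-knockout interval of each of the 6 classes held the coding average of 3.52 per Mb, and the wild-type intervals held 1.32. Against the coding rates of the genes' own chromosomes, the auxiliary class stood apart, but only with KCNIP1 counted. Its 6 wild-type sites compared with 2.003 at those rates, and its 13 double-knockout sites with 5.398. Both rates lay below the counting intervals of the numbers observed. KCNIP1 alone gave 3 and 10 of these sites. The other 11 genes held 3 in each list (0.619 to 8.77), an interval that holds even the values for the whole class. In the other classes the intervals held the values from chromosome rates.

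**Figure D4:**
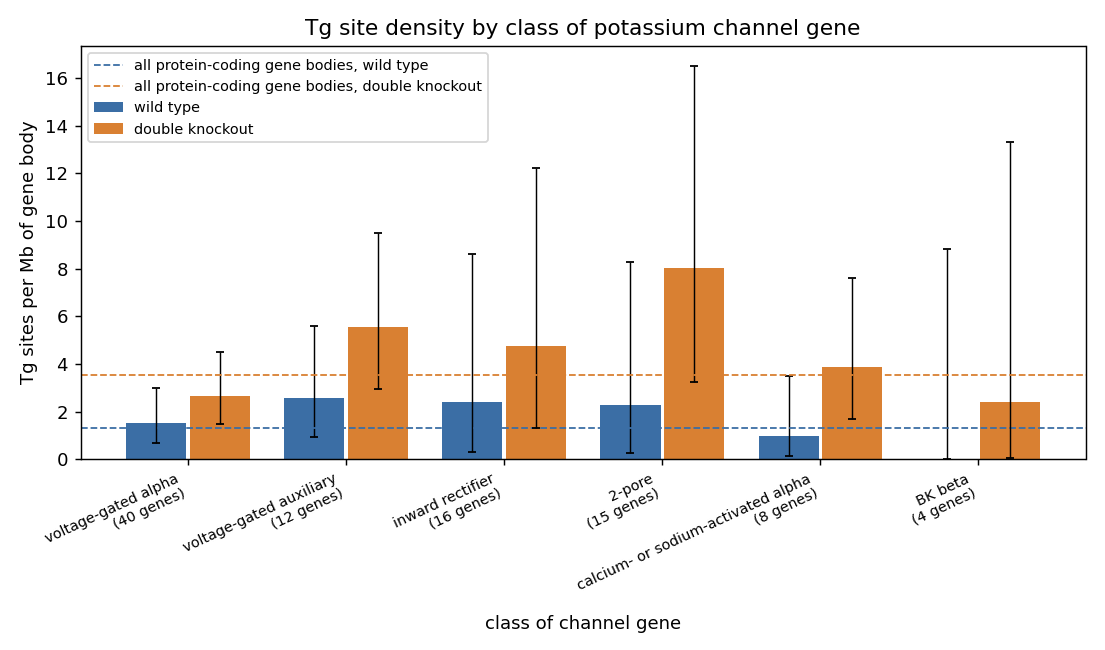
Tg sites per Mb of gene body (y axis) in 6 classes of potassium channel gene (x axis), with exact 95% Poisson intervals. Dashed lines are the rates in all protein-coding gene bodies, 1.32 and 3.52 per Mb, and every bar's interval takes in the line of its own list.

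Most wild-type sites in channel genes were also listed in the double knockout. Of 20 sites 17 overlapped a double-knockout site by at least 1 bp, 85.0% (62.1% to 96.8%), against 76.0% in all coding gene bodies. Of 46 double-knockout sites 18 were shared, 39.1% (25.1% to 54.6%), against 27.2%. The 3 wild-type sites without a partner lay in KCNH8, KCNK12 and KCNQ3. The 28 unshared double-knockout sites, 7 of them in KCNIP1, had a median −log10 q of 5.49 against 7.50 for the shared ones.

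The share of sites from each genotype was near that in all coding gene bodies. The wild-type list gave 20 of the 66 sites in channel genes, 30.3% (19.6% to 42.9%), against 27.2% in all coding gene bodies and 28.2% of both lists whole. Since the double-knockout list is longer, it was also cut to its strongest 3688 sites. The channel genes then held 20 wild-type and 16 double-knockout sites, 55.6% from wild type (38.1% to 72.1%), against 48.6% in all coding gene bodies.

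For the 17 wild-type sites with a partner, the double-knockout reads were divided by 1.69, the ratio of the lowest backgrounds. They were then set against the wild-type reads. The ratio of double knockout to wild type had a median of 0.909 and ran from 0.517 to 1.22, with 10 sites below 1 and the rest at 1.00 (KCNQ1) or above. Over the 1265 shared sites in all coding gene bodies the median was 0.955. With the lowest background per bp of the narrowest site as the measure, the divisor was 1.61 and the medians were 0.958 and 1.01. The lowest ratio was at the first site of KCNAB2 (16 wild-type reads, 9.15 to 26.0, and 14 in the double knockout, 8.27 after division), and the highest at the first site of KCNC1 (14 and 29 reads). The counting intervals overlapped at all 17 sites.

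**Figure D5:**
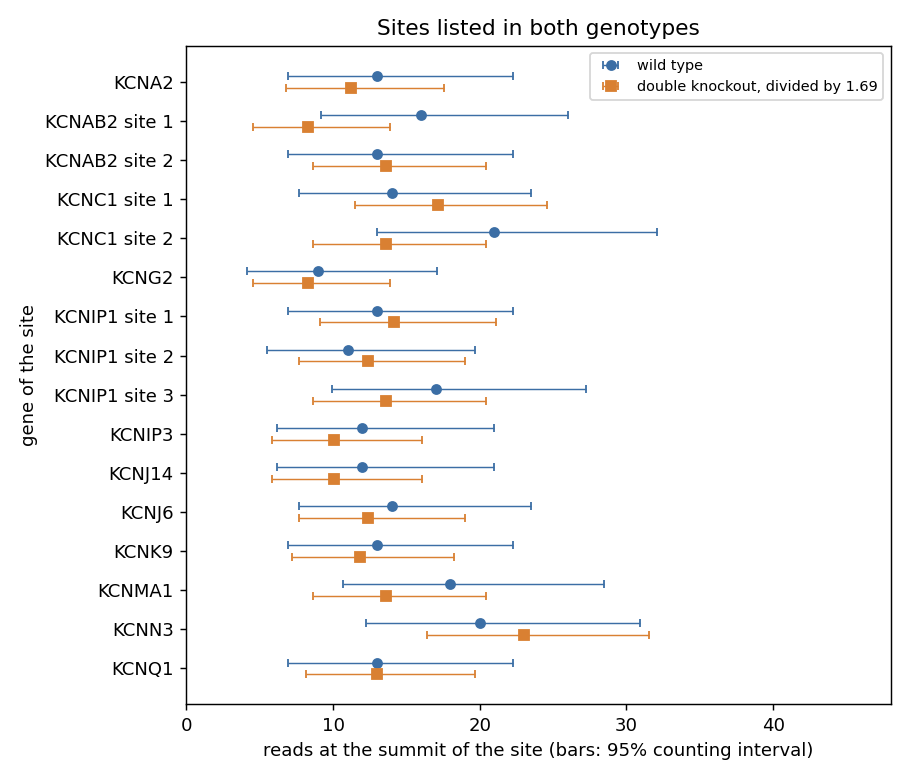
Reads at the summit (x axis) of 16 sites in channel genes listed in both genotypes (y axis), for wild type and for the double knockout after division by 1.69. Bars are exact 95% Poisson intervals, and those of the 2 genotypes overlap at every site.

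Sites in channel genes had medians of strength near those of all coding gene bodies. Their median fold was 5.62 in wild type (range 3.08 to 8.62), against 5.17 for all sites in coding gene bodies, and 4.61 in the double knockout (2.58 to 8.20), against 4.94. Their median −log10 q was 4.45 in wild type, against 4.45 in all coding gene bodies. In the double knockout it was 6.08, between the lower and upper quartiles of sites in all coding gene bodies, 4.30 and 8.73. Reads at the summit ran from 9 to 21 in wild type and from 11 to 39 in the double knockout, where KCNN3 had the most.

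Along the genes, sites lay in every part. The strand was known for 15 wild-type and 37 double-knockout sites. Counted from the 5′ end, and with the gene cut into 3 equal lengths, the first held 4 and 11 of these, the middle 7 and 16, and the last 4 and 10. No site midpoint inside a gene lay within 1 kb of an annotated start, and 4 and 5 lay within 5 kb. With sites outside the gene body counted as well, a midpoint lay within 1 kb of a start of KCNN4 in wild type, and of KCNN4, KCNJ14 and KCNA2 in the double knockout. Toward chromosome ends, 7 channel genes lay within 5 Mb of the last gene or listed site. Wild type marked 2 of these (28.6%, against 8.98% of all coding genes there) and the double knockout 3 (42.9%, against 14.9%), shares that rest on very few genes. Farther in, wild type marked 14 of 88 (15.9%, against 5.40%) and the double knockout 20 (22.7%, against 13.8%).

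Among 14 partner and related genes outside the symbol rule, wild type marked 2 and the double knockout 3, against 5.88% and 14.0% of all coding genes. They held 5 and 12 sites, near the 4.10 and 10.2 that the coding rates of their chromosomes would give. Nearly all of these sites were in DPP6, a transmembrane partner of the same KCND pore subunits that KCNIP1 binds. DPP6 (1146 kb on chromosome 7) held 4 and 10 sites, where the coding rate of its chromosome would give 1.78 and 3.80. Its relative DPP10, longer at 1403 kb, held 0 and 1. HCN4, a pacemaker channel gene, held 1 in each list. ABCC8 and ABCC9, the sulfonylurea receptors of inward rectifiers, held none, nor did the 4 LRRC genes of BK gamma subunits, AMIGO1, KCNRG, HCN2 and HCN3. Without DPP6 the list had 0.446 and 0.892 sites per Mb. Of 9 sodium channel alpha genes set beside them, wild type marked 1 and the double knockout 3, against the same 5.88% and 14.0%. They held 1 and 4 sites, near the 1.18 and 3.49 that the coding rates of their chromosomes would give.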

How the data were processed

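The authors deposited 1 list of Tg sites per genotype in a narrow-peak layout without a header. The tools were MACS2, Bowtie2, deepTools and bedtools, with build hg38, per the submitters' processing notes. Their versions and settings, and how the 2 libraries of a genotype were joined, were not stated. Per the labels' protocols, an antioxidant was present during DNA extraction. Each deposited row gives a score, a fold enrichment (a ratio of reads to background), a −log10 p-value, a −log10 q-value and a summit offset. These values are the authors' and describe sites within their own list.

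Genes came from RefSeq GRCh38.p14, whose main chromosomes share hg38 coordinates. Overlapping gene bodies were merged before rates were computed. Reads at a summit were recovered from fold and −log10 p, with 1 added to both reads and background in the fold, and p read as a Poisson tail; every site matched within 0.001. Python 3.11.15, pandas 2.3.3 and scipy 1.17.1 were used, and the counting code was tested on simulated data.

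The rule named all genes with a wild-type site, though some genes counted in the totals are not reported by name here; sites were given one by one for genes with at least 3 in a list, and the 5 longest genes without a site were named. The genes, lists and rules were chosen with earlier results of these data known. Alternatives changed how sites were assigned, thresholds, list length and members. Apart from the stretches within promoter windows, sequences under the sites were not analysed here, and exons and introns were not assigned.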

Additional observations from a re-analysis of the deposited data

How the results depend on the processing

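Of 96 recomputed values for 29 results, 86 stayed within 1.5 times (counts of genes) or within the counting interval (rates and shares). Some of the 86 could not move. Cutting the double-knockout list leaves wild-type values unchanged, and the 2 channel genes on X or Y held no site. The other 10 came from shorter lists, which hold fewer sites by construction. With sites at or above the list's median −log10 q, 8 genes held a wild-type and 14 a double-knockout site (0.765 and 2.04 sites per Mb). At −log10 q of 5 or more, 8 genes held a wild-type site, and the rates per Mb were 0.765 for wild type and 2.63 for the double knockout. With lists of equal length, 12 genes held a double-knockout site (1.36 per Mb), and 55.6% of the sites were from wild type. In each of these settings the percent of channel genes with a site stayed above that of all coding genes, for instance 12.6% against 6.55% in the double knockout at equal length. Relative to all coding gene bodies, the rate of double-knockout sites came to 0.977 at equal length and 0.922 without KCNIP1, from 1.11. No paired analysis was possible because each genotype has 1 list and the labelled replicates have no values of their own. Reads of about 13 to 19 at a summit leave wide intervals at single sites.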

Other observations

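The wild-type site in KCNH8, at chr3:19308582-19308892, had the highest fold enrichment of the wild-type sites in channel gene bodies, 8.62, with a −log10 q of 9.70 and 14 reads (7.65 to 23.5). It had no partner in the double knockout, where the nearest site lay 1289 kb away. Of the 362 wild-type sites with a −log10 q at least as high, 353 (97.5%) were shared with the double knockout. The gene was singled out after its values were seen.

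Promoter windows of channel genes with a site in the gene body held a median of 29.3 CpG dinucleotides in 300 bases (18 genes, range 6 to 53, windows of a gene averaged), and those of channel genes without one a median of 17 (53 genes, range 1 to 49). For all coding genes with and without a site the medians were 22 and 21. Median GC content was 68.3% and 64.3% in the channel genes, and 64.0% and 62.0% over all coding genes. The difference between channel genes was not tested.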
